A study of Homo sapiens with 13 samples.

Results

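The genes described here are a module of 40 genes of the G2/M transition and the mitotic spindle. They were found by symbol: a gene was measured where at least 1 row of the array table carried its symbol alone, and the row with the highest mean over the 13 arrays stood for it. This gave 39 of the 40 genes, out of 18377 genes tested in the series. CENPA, the histone variant that marks centromeres, shares its row with another gene, SLC35F6, and was not analysed here.

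RNA was measured on Affymetrix whole-transcript arrays, 1 flask to an array, in HepG2, a human liver cancer line that the labels call hepatoblastoma, and in HepG2S1, which the labels describe as a sorafenib-resistant line derived from it. Sorafenib blocks several kinases and is given to patients with liver cancer. The resistant line had been selected by raising the dose in small steps over months, starting just under an inhibitory dose, and was then kept in the drug. The 4 groups were HepG2S1 withdrawn from sorafenib at 20% O2 (n = 3), HepG2S1 with 6 µM sorafenib at 2% O2 (n = 3), HepG2S1 with 6 µM sorafenib at 20% O2 (n = 4) and HepG2 never given the drug at 20% O2 (n = 3). All were grown for 72 h in the same medium with fetal calf serum, insulin and dexamethasone. The drug was dissolved in dimethylsulfoxide, and the labels do not say whether drug-free flasks received the solvent. Nor do they say whether HepG2S1 is 1 clone or whether the flasks came from separate cultures, and the p-values rest on the spread from flask to flask.

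Cells pass from G2 into mitosis when cyclin B activates CDK1, whose substrates include the condensing chromosomes, the nuclear lamina and the spindle. Polo-like and Aurora kinases then build the spindle, kinetochores join chromosomes to it, the spindle checkpoint holds the anaphase-promoting complex (APC/C) until all are attached, and the central spindle and anillin ring divide the cell. Most of these transcripts peak together late in the cell cycle, under the MuvB complex with B-MYB and FOXM1, and they are low in resting cells such as adult hepatocytes and high in dividing liver cancer cells.

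Array values are on the log2 scale, so that a difference of 1 is a 2-fold difference. The median of the rows lay between 7.30 and 7.42 on every array, and the values of the measured mitotic genes between 6.10 and 12.46, all above 5.76, the median lower quartile of the arrays. Across the rows, the correlation of 2 arrays was 0.913 to 0.923 between the lines, 0.991 to 0.996 between groups of HepG2S1 and 0.995 to 0.998 inside a group. The liver label was checked on 14 hepatocyte markers. ALB, serum albumin, averaged 5.20 in HepG2S1 with sorafenib at 20% O2 and 12.79 in HepG2, and AFP, alpha-fetoprotein, 4.79 and 13.45 in the same groups. All 14 markers were called lower in HepG2S1 under the drug, with a median log2 difference of -7.35, and ALB and AFP, 2 defining secreted proteins of the labelled cell type, lay below that lower quartile in HepG2S1. The descent of HepG2S1 from HepG2 rests on the labels and could not be checked with these values, and every difference between the lines below carries that limit.

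The promoters of these genes are shown because most of them are known to peak together in the cell cycle, a timing not measured here. That timing is known to run through the CHR (cell cycle genes homology region, core TTTGAA or TTCGAA, bound by MuvB) and through CCAAT boxes (bound by NF-Y). RefSeq windows of 300 bases on GRCh38.p14, 250 before and 50 from the annotated start, were at hand for 33 of the 39 measured genes, in 40 windows, with none for AURKA, BIRC5, FOXM1, TPX2, TTK and UBE2C. The 6 windows below belong to genes on which the results turn, and capitals mark the 2 motif types on either strand, so that TTCAAA and ATTGG are matches on the opposite one. PLK1 did not pass against HepG2 under the drug, KIF14 had the highest difference there, CCNB1 and HMMR rose on withdrawal, ANLN and CCNB2 rose at 2% O2.
PLK1, chr16:23678639-23678938, plus strand: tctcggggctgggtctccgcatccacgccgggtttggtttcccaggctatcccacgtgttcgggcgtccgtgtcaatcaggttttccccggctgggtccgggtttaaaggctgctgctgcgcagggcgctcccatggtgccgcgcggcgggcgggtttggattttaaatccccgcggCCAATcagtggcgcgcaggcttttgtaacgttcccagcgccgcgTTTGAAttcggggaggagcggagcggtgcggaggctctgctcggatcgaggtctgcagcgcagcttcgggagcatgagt
CCNB2, chr15:59104896-59105195, plus strand: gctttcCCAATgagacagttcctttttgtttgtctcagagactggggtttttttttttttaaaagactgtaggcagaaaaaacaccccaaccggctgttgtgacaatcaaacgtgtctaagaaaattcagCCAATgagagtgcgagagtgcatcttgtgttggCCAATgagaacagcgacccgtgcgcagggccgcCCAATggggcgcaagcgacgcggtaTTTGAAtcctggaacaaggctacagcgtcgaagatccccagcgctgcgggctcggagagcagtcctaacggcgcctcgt
CCNB1, chr5:69166900-69167199, plus strand: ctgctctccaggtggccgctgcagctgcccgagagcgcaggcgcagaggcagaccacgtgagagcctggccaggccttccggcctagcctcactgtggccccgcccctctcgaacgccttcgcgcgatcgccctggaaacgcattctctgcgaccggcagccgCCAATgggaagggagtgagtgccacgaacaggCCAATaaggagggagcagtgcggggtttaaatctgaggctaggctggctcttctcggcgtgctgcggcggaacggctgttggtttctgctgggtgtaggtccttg
KIF14, chr1:200620702-200621001, minus strand: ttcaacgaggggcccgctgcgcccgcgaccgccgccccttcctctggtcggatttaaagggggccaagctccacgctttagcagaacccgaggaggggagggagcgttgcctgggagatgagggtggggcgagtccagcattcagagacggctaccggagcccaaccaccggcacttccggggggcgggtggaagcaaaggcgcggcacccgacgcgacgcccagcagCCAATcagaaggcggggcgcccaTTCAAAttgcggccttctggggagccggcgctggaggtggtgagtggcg
HMMR, chr5:163460382-163460681, plus strand: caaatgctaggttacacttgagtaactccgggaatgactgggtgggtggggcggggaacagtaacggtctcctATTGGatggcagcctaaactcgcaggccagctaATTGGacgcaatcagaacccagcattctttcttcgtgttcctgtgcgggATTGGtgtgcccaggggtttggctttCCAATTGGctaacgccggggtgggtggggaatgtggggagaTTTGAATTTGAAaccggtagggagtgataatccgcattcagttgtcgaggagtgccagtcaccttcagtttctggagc
ANLN, chr7:36389612-36389911, plus strand: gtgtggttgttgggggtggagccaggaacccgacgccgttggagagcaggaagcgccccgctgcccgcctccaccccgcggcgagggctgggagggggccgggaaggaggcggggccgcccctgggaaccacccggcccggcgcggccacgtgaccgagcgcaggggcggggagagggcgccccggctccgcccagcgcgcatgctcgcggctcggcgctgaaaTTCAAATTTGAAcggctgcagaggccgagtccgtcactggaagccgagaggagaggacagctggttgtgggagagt

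The CCNB2 window holds 4 CCAAT boxes and 1 TTTGAA downstream of them, and the PLK1 window 1 of each. HMMR has 5 CCAAT matches and 2 adjoining TTTGAA matches, while ANLN has 2 TTTGAA matches and no CCAAT, and CCNB1 2 CCAAT boxes and no CHR core. With both strands searched, TTTGAA was in 26 of the 40 windows (65.0%), against 12.2% of 20029 windows of the other genes tested and 15.2% of all 35116 windows. TTCGAA was in 2 of 40 (5.0%), against 1.6% and 1.4%. CCAAT was in 30 of 40 (75.0%), against 34.5% and 34.6%, and 19 of 40 (47.5%) held it 2 or more times, against 11.3% and 10.8%. A CHR core and CCAAT stood together in 22 of 40 windows (55.0%), against 5.3% and 6.4%. Of the 33 genes 5 had more than 1 window, and windows of the same gene can overlap, so that 1 site can be counted more than once. By gene, TTTGAA was in a window of 23 of 33 (69.7%), against 15.6% of the other genes tested. CCAAT was in a window of 26 of 33 genes (78.8%), against 42.1%. Within the windows 4 pairs of matches overlapped each other. Of 38 TTTGAA matches 21 lay from 50 bases before to 25 after the start. The 65 CCAAT matches were densest from 100 to 51 bases before it. A match describes letters in these windows and not a bound site.

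**Figure D1:**
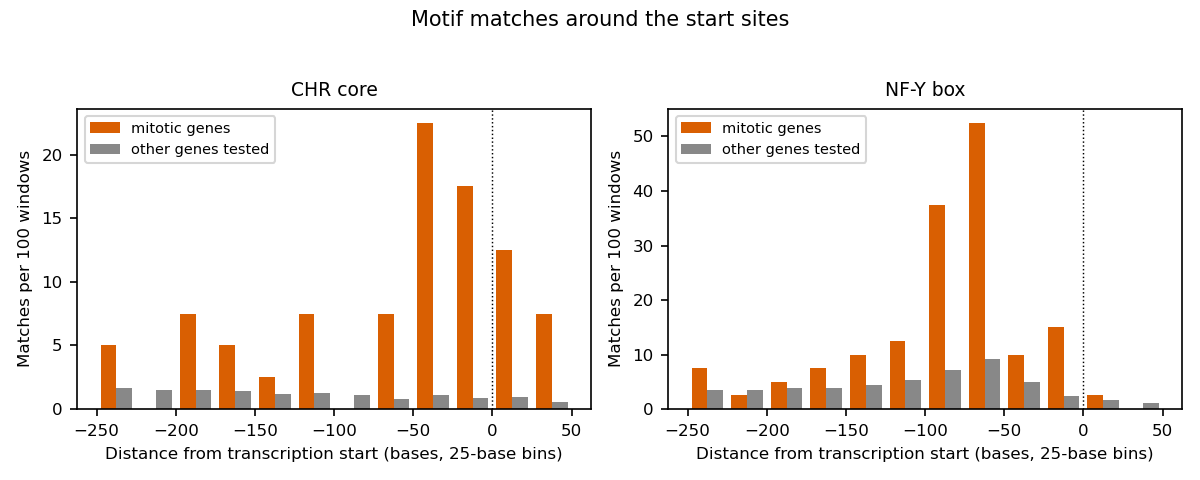
Matches of the CHR core TTTGAA (left) and the CCAAT box (right) per 100 promoter windows, in 25-base bins of distance from the annotated start, for 40 windows of the mitotic genes (orange) and 20029 windows of other genes tested (grey). The CHR core is most frequent just upstream of the start, at 22.5 per 100 windows, and CCAAT at 52.5 per 100 windows in the bin from 75 to 51 bases before it.

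The sizes of the differences between the lines overlapped whether or not a window held a motif. The 24 genes with a CHR core in a window had log2 differences between HepG2S1 under the drug at 20% O2 and HepG2 of 0.03 to 3.25, with a median of 1.53, and the 9 genes without it 0.75 to 1.77, with a median of 1.52. The 26 genes with CCAAT had a median of 1.41 and the 7 without it 1.77. These values are descriptions with no test, over genes that share the same arrays.

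HepG2S1 under sorafenib at 20% O2 (n = 4) was compared with HepG2 (n = 3), which asks how the resistant line in its drug differs from the line the labels give as its parent. 38 of the 39 mitotic genes rose, none fell, and PLK1 did not pass. Over all genes tested, limma at an adjusted p under 0.05, the call used throughout, called 57.3%, with 30.1% higher and 27.2% lower. The median difference of the 39 was 1.51 on the log2 scale (2.85-fold), beside 0.01 over all genes, and 31 of them were higher by 2-fold or more and 8 by 4-fold or more. Differences below are log2 values ± SE. On all 38 called genes every HepG2S1 array lay above every HepG2 array, as 29.4% of all genes did. Line and drug exposure changed together here and cannot be told apart, and in RNA from whole flasks neither can more cells in G2 and mitosis and more transcript in each.

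Withdrawn HepG2S1 (n = 3) was also set against HepG2 (n = 3), both without drug at 20% O2. All 39 genes rose, where 29.6% of all genes were called higher, 27.0% lower and 56.6% in either direction. The median was 1.58 (3.00-fold), beside -0.01 over all genes, with 29 genes higher by 2-fold or more and 10 by 4-fold or more. For 38 of the 39 the arrays of the groups did not overlap, against 31.2% of all genes that were higher without overlap. Both comparisons use the same HepG2 arrays. The hepatocyte markers moved with both: 14 of 14 were lower, and the log2 of their summed level ran from 9.82 to 9.86 in withdrawn cells, 9.72 to 9.78 at 2% O2, 9.78 to 9.85 with sorafenib at 20% O2 and 16.65 to 16.69 in HepG2. Of 10 fibroblast and stellate cell markers 4 were called higher under the drug and 1 lower, where 30.1% of all genes were higher and 27.2% lower. Their median log2 difference was 0.07, with 5 above 0 and 5 below and a lowest of -2.00. DCN at 5.43, LUM at 5.01 and FAP at 3.75 were among those called higher. The summed level of the 10 markers was 12.67 to 12.71 in withdrawn cells, 12.33 to 12.51 at 2% O2, 12.15 to 12.30 with sorafenib at 20% O2 and 11.61 to 11.68 in HepG2. Of 10 endothelial and blood markers 1 was higher under the drug, CD68 at 0.79, and 4 were lower, with a median of -0.07. Their summed level was 11.73 to 11.92, 12.35 to 12.45, 12.21 to 12.33 and 11.65 to 11.71 in the same order of groups. A summed level weighs the brightest markers most. The mean log2 value of these 10 was 6.47 to 6.57 with sorafenib at 20% O2 and 6.59 to 6.71 in HepG2. The part of these markers in the mitotic result was not tested.

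**Figure D2:**
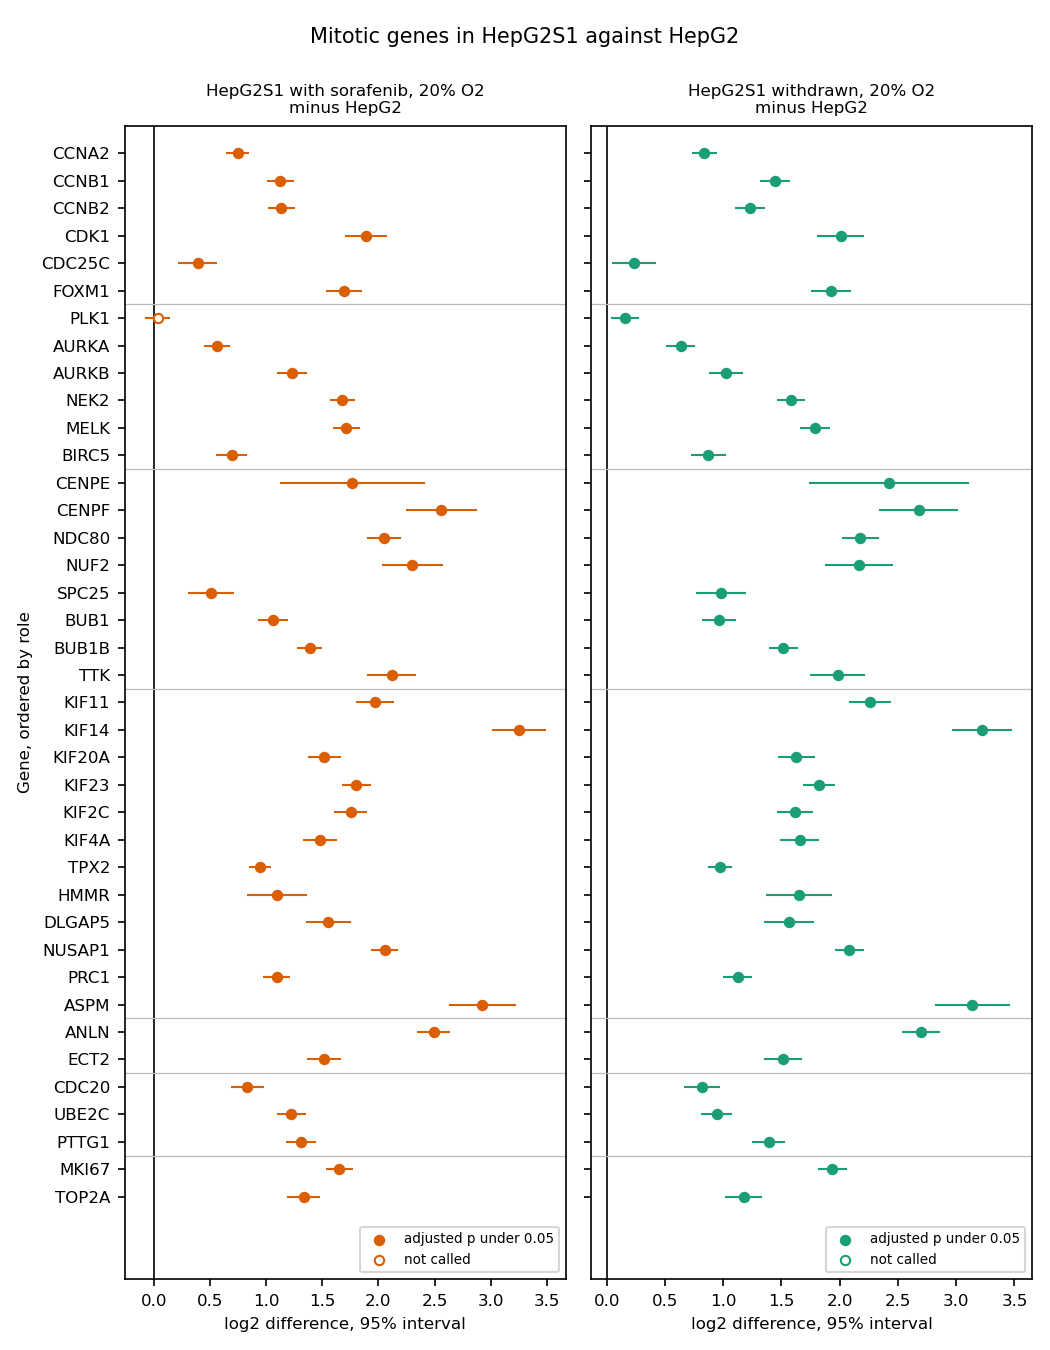
Log2 differences with 95% intervals of the 39 mitotic genes, ordered by role, for HepG2S1 with sorafenib at 20% O2 minus HepG2 (left) and for withdrawn HepG2S1 minus HepG2 (right); filled points passed an adjusted p of 0.05. All points lie right of 0, from 0.03 for PLK1 to 3.25 for KIF14 on the left and from 0.16 for PLK1 to 3.22 for KIF14 on the right.

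The cyclin-CDK1 switch and its transcription factor rose as a whole: 6 of 6 genes under the drug (median 1.13) and 6 of 6 after withdrawal (median 1.34). CDK1, the kinase that drives entry into mitosis, had log2 values of 10.17, 10.29 and 10.31 on the withdrawn arrays, 10.39, 10.24 and 10.07 on the 2% O2 arrays, 10.20, 10.00, 10.17 and 10.19 on the 20% O2 sorafenib arrays and 8.35, 8.34 and 8.05 in HepG2. All 10 HepG2S1 arrays were above all HepG2 arrays, and the difference was 1.89 ± 0.09 under the drug (limma, adjusted p = 3.15e-11) and 2.01 ± 0.09 after withdrawal. CCNB1, cyclin B1, its partner at mitotic entry, had values of 10.54, 10.53 and 10.61 after withdrawal, 10.41, 10.39 and 10.31 at 2% O2, 10.31, 10.17, 10.18 and 10.29 with sorafenib at 20% O2 and 9.03, 9.15 and 9.16 in HepG2. The withdrawn arrays were the highest and the HepG2 arrays the lowest, and the difference from HepG2 was 1.13 ± 0.06 under the drug and 1.45 ± 0.06 after withdrawal. CCNA2, cyclin A2, which acts from S phase to early mitosis, had 11.32, 11.32 and 11.37 in withdrawn cells, 11.24, 11.23 and 11.21 at 2% O2, 11.28, 11.20, 11.23 and 11.27 at 20% O2 with the drug and 10.50, 10.55 and 10.46 in HepG2. It rose less, by 0.75 ± 0.05 and 0.84 ± 0.05 on the log2 scale in the same comparisons. FOXM1, a transcription factor of G2/M genes, had log2 values of 11.44, 11.46 and 11.51 on the withdrawn arrays, 11.34, 11.32 and 11.32 on the 2% O2 arrays, 11.26, 11.26, 11.18 and 11.25 on the 20% O2 sorafenib arrays and 9.38, 9.46 and 9.78 in HepG2. HepG2 arrays differed more among themselves than the HepG2S1 arrays did, yet did not reach them, and the differences were 1.69 ± 0.07 and 1.93 ± 0.08. CDC25C, the phosphatase that removes inhibitory phosphates from CDK1, had values of 7.96, 8.05 and 7.99 after withdrawal, 8.36, 8.41 and 8.23 at 2% O2, 8.26, 8.06, 8.08 and 8.23 with sorafenib at 20% O2 and 7.72, 7.61 and 7.98 in HepG2. It rose by 0.39 ± 0.08 under the drug (limma, adjusted p = 0.000663), the smallest called rise of that comparison, and by 0.23 ± 0.09 after withdrawal, where 1 HepG2 array overlapped the withdrawn ones (adjusted p = 0.0329). That call was lost without HepG2 replicate 1 or 2, or without withdrawn replicate 2 or 3. CCNB2, cyclin B2, was at 1.13 ± 0.06 and 1.23 ± 0.06.

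Of the mitotic kinases and survivin 5 of 6 rose under the drug (median 0.96) and 6 of 6 after withdrawal (median 0.95). PLK1, the polo-like kinase that acts on centrosomes, kinetochores and cytokinesis, had log2 values of 12.34, 12.35 and 12.36 on the withdrawn arrays, 12.24, 12.24 and 12.23 on the 2% O2 arrays, 12.22, 12.29, 12.16 and 12.23 on the 20% O2 sorafenib arrays and 12.11, 12.17 and 12.29 in HepG2. The arrays of HepG2S1 under the drug overlapped those of HepG2, and the difference was 0.03 ± 0.05, with a 95% interval of -0.08 to 0.15 (limma, adjusted p = 0.622). Withdrawn arrays stood just above the highest HepG2 array, at a difference of 0.16 ± 0.06 (adjusted p = 0.0248), a call lost without HepG2 replicate 1 or 2 and without withdrawn replicate 2 or 3. AURKA, the centrosomal Aurora kinase, had values of 11.32, 11.32 and 11.42 after withdrawal, 11.41, 11.34 and 11.30 at 2% O2, 11.34, 11.23, 11.31 and 11.22 with sorafenib at 20% O2 and 10.78, 10.65 and 10.73 in HepG2. It rose by 0.56 ± 0.05 under the drug and 0.64 ± 0.06 after withdrawal, with no overlap. AURKB, the Aurora kinase of the chromosomal passenger complex, had 10.57, 10.55 and 10.46 in withdrawn cells, 10.69, 10.72 and 10.76 at 2% O2, 10.69, 10.91, 10.62 and 10.72 at 20% O2 with the drug and 9.45, 9.54 and 9.51 in HepG2. Its differences were larger, 1.23 ± 0.06 and 1.02 ± 0.07, and the withdrawn arrays were the lowest of the HepG2S1 arrays. BIRC5, survivin, the passenger subunit that brings AURKB to centromeres, had log2 values of 9.83, 9.67 and 9.68 on the withdrawn arrays, 9.63, 9.78 and 9.64 on the 2% O2 arrays, 9.56, 9.56, 9.51 and 9.56 on the 20% O2 sorafenib arrays and 8.74, 8.98 and 8.84 in HepG2. It rose by 0.69 ± 0.07 and 0.87 ± 0.07. A dimmer row of BIRC5, averaging 6.72, overlapped between HepG2S1 under the drug (6.62 to 6.74) and HepG2 (6.28 to 6.71). NEK2, a kinase of centrosome separation, was at 1.68 ± 0.05 under the drug, and MELK, a kinase that peaks in mitosis, at 1.71 ± 0.06.

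Kinetochore and spindle checkpoint genes had the highest median of the larger roles, 1.91 under the drug and 2.08 after withdrawal, with 8 of 8 called in both. CENPF, a protein of the outer kinetochore, had values of 11.67, 11.65 and 11.50 after withdrawal, 11.51, 11.71 and 11.44 at 2% O2, 11.64, 11.25, 11.58 and 11.50 with sorafenib at 20% O2 and 9.34, 8.96 and 8.50 in HepG2. Its difference was 2.56 ± 0.15 under the drug (limma, adjusted p = 4.22e-10) and 2.68 ± 0.16 after withdrawal, although the HepG2 arrays lay far apart from each other. CENPE, the kinetochore motor that moves chromosomes to the spindle equator, had 9.22, 9.16 and 8.82 in withdrawn cells, 8.69, 9.08 and 8.30 at 2% O2, 8.96, 7.49, 8.78 and 8.41 at 20% O2 with the drug and 7.10, 6.73 and 6.10 in HepG2. It was the noisiest member, with arrays of every group far apart, and its difference of 1.77 ± 0.30 under the drug had the largest SE of the 39 (adjusted p = 9.7e-05). BUB1, a checkpoint kinase at the kinetochore, had log2 values of 10.74, 10.72 and 10.68 on the withdrawn arrays, 10.95, 11.03 and 10.74 on the 2% O2 arrays, 10.88, 10.75, 10.79 and 10.80 on the 20% O2 sorafenib arrays and 9.75, 9.72 and 9.75 in HepG2. The HepG2 arrays were nearly equal, and the difference was 1.06 ± 0.06 under the drug and 0.97 ± 0.07 after withdrawal. BUB1B, the BubR1 subunit of the mitotic checkpoint complex, had values of 10.83, 10.82 and 10.77 after withdrawal, 10.52, 10.58 and 10.44 at 2% O2, 10.70, 10.66, 10.64 and 10.69 with sorafenib at 20% O2 and 9.37, 9.27 and 9.22 in HepG2. It rose by 1.39 ± 0.05 and 1.52 ± 0.06. SPC25, a subunit of the NDC80 complex that binds microtubules, had 8.59, 8.63 and 8.40 in withdrawn cells, 8.52, 8.61 and 8.26 at 2% O2, 8.21, 7.84, 8.16 and 8.06 at 20% O2 with the drug and 7.52, 7.56 and 7.60 in HepG2. It rose by 0.51 ± 0.09 under the drug, the smallest difference of this role, and by 0.98 ± 0.10 after withdrawal. Its partners in the complex were far higher under the drug, NDC80 at 2.05 ± 0.07 and NUF2 at 2.30 ± 0.13, as was TTK, the checkpoint kinase MPS1, at 2.12 ± 0.10.

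Spindle motors and microtubule proteins had the highest single differences, with 12 of 12 called in both comparisons and a median of 1.65 in each. KIF14, a kinesin of the central spindle and midbody, had log2 values of 10.24, 10.19 and 10.04 on the withdrawn arrays, 10.22, 10.39 and 10.04 on the 2% O2 arrays, 10.34, 9.87, 10.28 and 10.24 on the 20% O2 sorafenib arrays and 7.09, 6.92 and 6.79 in HepG2. The difference was 3.25 ± 0.11 under the drug, or 9.51-fold (limma, adjusted p = 7.77e-13), and 3.22 ± 0.12 after withdrawal, or 9.33-fold. ASPM, a spindle pole protein, had values of 10.78, 10.83 and 10.65 after withdrawal, 10.76, 10.87 and 10.59 at 2% O2, 10.70, 10.34, 10.64 and 10.48 with sorafenib at 20% O2 and 8.05, 7.51 and 7.28 in HepG2. Every HepG2S1 array was above every HepG2 array, with a difference of 2.93 ± 0.14 under the drug and 3.14 ± 0.15 after withdrawal. HMMR, a spindle-associated protein also known as a hyaluronan receptor, had 9.53, 9.67 and 9.57 in withdrawn cells, 9.45, 9.58 and 9.31 at 2% O2, 9.24, 8.69, 9.18 and 9.03 at 20% O2 with the drug and 8.15, 8.0 and 7.68 in HepG2. It rose by 1.09 ± 0.12 and 1.65 ± 0.13, and sorafenib replicate 2 at 20% O2 was the lowest HepG2S1 array. KIF20A, a kinesin of the central spindle, had log2 values of 11.19, 11.26 and 11.21 on the withdrawn arrays, 11.14, 11.22 and 11.03 on the 2% O2 arrays, 11.09, 11.11, 11.11 and 11.13 on the 20% O2 sorafenib arrays and 9.45, 9.56 and 9.77 in HepG2. TPX2, which activates AURKA on spindle microtubules, had values of 11.76, 11.69 and 11.74 after withdrawal, 11.71, 11.73 and 11.70 at 2% O2, 11.72, 11.67, 11.74 and 11.69 with sorafenib at 20% O2 and 10.70, 10.80 and 10.77 in HepG2. Their HepG2S1 arrays lay close together and above HepG2, and under the drug both rose, KIF20A by 1.52 ± 0.07 and TPX2 by 0.95 ± 0.05. KIF11, the kinesin that pushes spindle poles apart, was at 1.97 ± 0.08, KIF23, which with its partner bundles the central spindle, at 1.80 ± 0.06, KIF2C, a microtubule depolymerase, at 1.75 ± 0.07, and KIF4A, a chromosome-bound kinesin, at 1.48 ± 0.07. NUSAP1, a microtubule-bundling protein, was at 2.05 ± 0.05, DLGAP5, which stabilises kinetochore fibres, at 1.56 ± 0.09, and PRC1, the crosslinker of antiparallel microtubules, at 1.10 ± 0.06.

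The remaining roles rose too, 7 of 7 genes in each comparison with HepG2. ANLN, anillin, the scaffold of the cleavage furrow, had 12.08, 12.10 and 12.06 in withdrawn cells, 12.35, 12.46 and 12.30 at 2% O2, 11.94, 11.71, 11.89 and 11.95 at 20% O2 with the drug and 9.50, 9.38 and 9.27 in HepG2. The groups of HepG2S1 were apart from each other as well as from HepG2, and the difference from HepG2 was 2.49 ± 0.07 under the drug at 20% O2 (limma, adjusted p = 6.17e-14) and 2.70 ± 0.07 after withdrawal. ECT2, the exchange factor that activates RhoA for the furrow, was at 1.51 ± 0.07 and 1.51 ± 0.08. CDC20, which activates the APC/C at anaphase, had log2 values of 11.81, 11.82 and 11.79 on the withdrawn arrays, 11.75, 11.70 and 11.66 on the 2% O2 arrays, 11.85, 11.83, 11.84 and 11.75 on the 20% O2 sorafenib arrays and 10.79, 11.05 and 11.12 in HepG2. It rose by 0.83 ± 0.07 and 0.82 ± 0.07. UBE2C, the ubiquitin-conjugating enzyme of the APC/C, had values of 9.79, 9.72 and 9.73 after withdrawal, 10.28, 10.23 and 10.17 at 2% O2, 10.04, 10.13, 9.93 and 10.03 with sorafenib at 20% O2 and 8.74, 8.90 and 8.77 in HepG2. Its difference was 1.23 ± 0.06 under the drug and 0.94 ± 0.06 after withdrawal, where the withdrawn arrays were the lowest of HepG2S1. PTTG1, securin, was at 1.31 ± 0.06 under the drug; it has near copies, PTTG2 and PTTG3P, with rows of their own, and how far their probes share signal was not tested. MKI67, the proliferation antigen that coats mitotic chromosomes, had 11.62, 11.55 and 11.50 in withdrawn cells, 11.49, 11.48 and 11.31 at 2% O2, 11.29, 11.23, 11.27 and 11.29 at 20% O2 with the drug and 9.64, 9.63 and 9.58 in HepG2. It rose by 1.65 ± 0.06 and 1.94 ± 0.06. TOP2A, the topoisomerase that untangles sister chromatids, had log2 values of 11.61, 11.68 and 11.64 on the withdrawn arrays, 11.86, 11.85 and 11.73 on the 2% O2 arrays, 11.85, 11.68, 11.83 and 11.87 on the 20% O2 sorafenib arrays and 10.58, 10.51 and 10.31 in HepG2. It rose by 1.34 ± 0.07 and 1.17 ± 0.07, with the withdrawn arrays below all sorafenib arrays of HepG2S1.

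**Figure D3:**
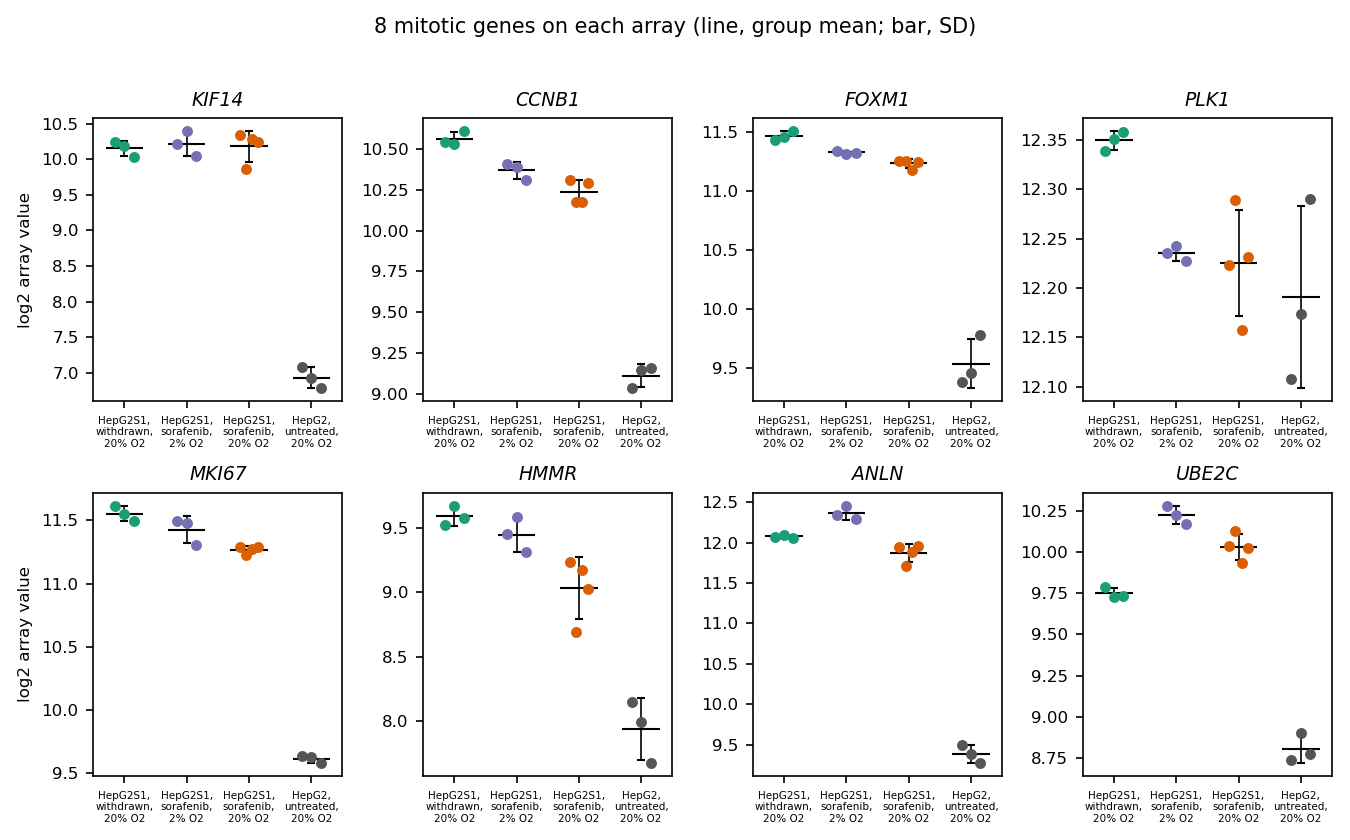
Log2 values of 8 mitotic genes on each of the 13 arrays, with the group mean (line) and SD (bar), for withdrawn HepG2S1 (green), HepG2S1 with sorafenib at 2% O2 (purple) and at 20% O2 (orange), and HepG2 (grey); each panel has its own scale. HepG2 lies far below the other groups for all 8 but PLK1, whose arrays with sorafenib at 20% O2 (12.16 to 12.29) overlap those of HepG2 (12.11 to 12.29).

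Within HepG2S1 the differences were small beside those between the lines. Every one of the 39 genes was lowest in HepG2, and 22 had their highest mean in withdrawn cells, 12 at 2% O2 and 5 with sorafenib at 20% O2. The median over the genes was 10.65, 10.67 and 10.61 on the withdrawn arrays, 10.69, 10.63 and 10.54 on the 2% O2 arrays, 10.62, 10.40, 10.62 and 10.60 on the 20% O2 sorafenib arrays, and 8.98, 8.90 and 8.83 in HepG2. Some arrays stood apart. Replicate 2 of sorafenib at 20% O2 was above its group mean for 8 of the 39 genes, replicate 3 of sorafenib at 2% O2 for 1, and the other 11 arrays for 13 to 35. After subtraction of the group means, the value of a gene correlated with the median of the other members over the 13 arrays at a median Pearson r of 0.58, and 22 of the 39 genes were above 0.5, against a median of -0.12 and 14.9% above 0.5 for the 18338 other genes tested. The share above 0.5 rested on the 2 arrays that stood lowest, which were picked by the values of these same genes. Without them 6 genes were above 0.5 (15.4%), against 14.3% of the other genes. The median r was then 0.34 for the members and -0.02 for the other genes. The genes on 1 array share its flask and its normalization, and these correlations carry no test.

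**Figure D4:**
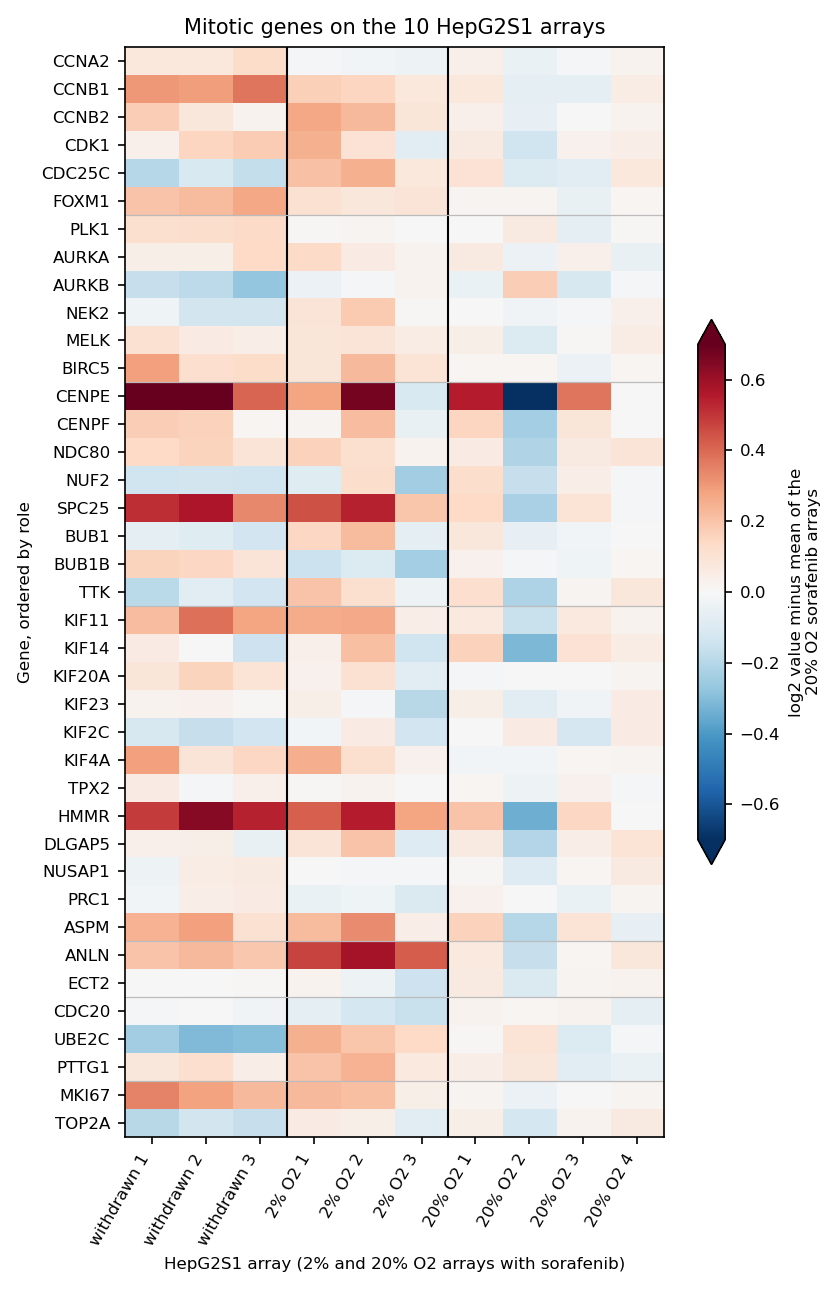
Log2 value of the 39 mitotic genes (rows, by role) on each HepG2S1 array, minus the mean of the 4 sorafenib arrays at 20% O2, with withdrawn arrays left, then 2% O2, then 20% O2; colours end at 0.7 either way, which CENPE exceeds. HMMR and SPC25 are high on withdrawn and 2% O2 arrays, ANLN on 2% O2 arrays, UBE2C and AURKB are low on withdrawn arrays, and replicate 2 of sorafenib at 20% O2 is low for most genes.

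Withdrawal of sorafenib (n = 3) against continued sorafenib at 20% O2 (n = 4) asked what taking the drug away does to the resistant line. 6 of the 39 genes rose, 2 fell and 31 did not pass, where limma called 18.0% of all genes, 10.1% higher and 7.90% lower. The share of mitotic genes called is thus near that of all genes, and no member changed by 2-fold. The median difference was 0.08, beside -0.02 over all genes, with 27 genes above 0 and 12 below. At an unadjusted p under 0.05 there were 12 higher and 3 lower, against 15.4% and 13.3% of all genes. Without overlap of the arrays 13 were higher and 6 lower, against 16.2% and 14.0% of all genes.

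The rises were in HMMR, by 0.56 ± 0.12 (limma, adjusted p = 0.00563), SPC25, by 0.47 ± 0.09 (adjusted p = 0.00275), CCNB1, by 0.32 ± 0.06 (adjusted p = 0.00102), KIF11, by 0.29 ± 0.08 (adjusted p = 0.0182), MKI67, by 0.29 ± 0.06 (adjusted p = 0.00221), and FOXM1, by 0.23 ± 0.07 (adjusted p = 0.0437). All 3 withdrawn arrays lay above all 4 sorafenib arrays for each of them. UBE2C fell by 0.28 ± 0.06 on the log2 scale (adjusted p = 0.00343) and AURKB by 0.21 ± 0.06 (adjusted p = 0.036), with all withdrawn arrays below all sorafenib arrays. CENPE had the largest difference that did not pass, 0.66 ± 0.30 (adjusted p = 0.165), with 1 sorafenib array at 7.49 and the others from 8.41 to 8.96. Among the genes not called, CDK1 was at 0.12 ± 0.09, CCNA2 at 0.09 ± 0.05, TOP2A at -0.16 ± 0.07, BUB1 at -0.10 ± 0.06 and KIF14 at -0.03 ± 0.11, and the 95% intervals of the 31 ran from -0.41 to 1.30 between them. Without sorafenib replicate 2 the genes called were CCNB1, HMMR, MKI67 and SPC25 higher and UBE2C lower, and the same 5 were called without withdrawn replicate 2. FOXM1 was lost whichever of the 10 HepG2S1 arrays was left out. AURKB, the other fall, was also lost without withdrawn replicate 1 or 3 and without sorafenib replicate 4.

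The lowering of oxygen to 2% (n = 3) against 20% (n = 4), both with sorafenib, asked how low oxygen changes the line in its drug. 5 genes rose, none fell and 34 did not pass, where 15.2% of all genes were called, 8.99% higher and 6.17% lower. The median difference was 0.09, beside -0.03 over all genes, with 29 genes above 0 and 10 below, and at an unadjusted p under 0.05 there were 10 higher and 1 lower, against 14.8% and 16.6% of all genes. Arrays did not overlap for 10 genes that were higher and 2 that were lower, against 13.9% and 14.3% of all genes. This comparison shares its 20% O2 sorafenib arrays with the withdrawal comparison.

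ANLN had the largest difference, 0.49 ± 0.07, or 1.41-fold (limma, adjusted p = 0.000236), and its 3 arrays at 2% O2 were above all others of the series. HMMR rose by 0.41 ± 0.12 (adjusted p = 0.0374) and SPC25 by 0.39 ± 0.09 (adjusted p = 0.0121). CCNB2 rose by 0.19 ± 0.06 (adjusted p = 0.0316) and UBE2C by 0.19 ± 0.06 (adjusted p = 0.0384). BUB1B was at -0.16 ± 0.05 (adjusted p = 0.0532) and MKI67 at 0.16 ± 0.06 (adjusted p = 0.0675), both just short of the call, and the 95% intervals of the 34 genes not called ran from -0.36 to 0.92 between them. The count of rises hung on single arrays. It was 1, ANLN alone, without 2% O2 replicate 1 or 2, and 9 without replicate 3, the array on which 38 of the 39 genes were below the group mean. Without sorafenib replicate 2, 3 or 4 at 20% O2 it was 3, 3 and 2. Scaling by the 75th percentile left 2 rises, ANLN and SPC25, and made BUB1B a fall, and under it 32.0% of the called genes of the whole table were higher, against 59.3% without it.

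**Figure D5:**
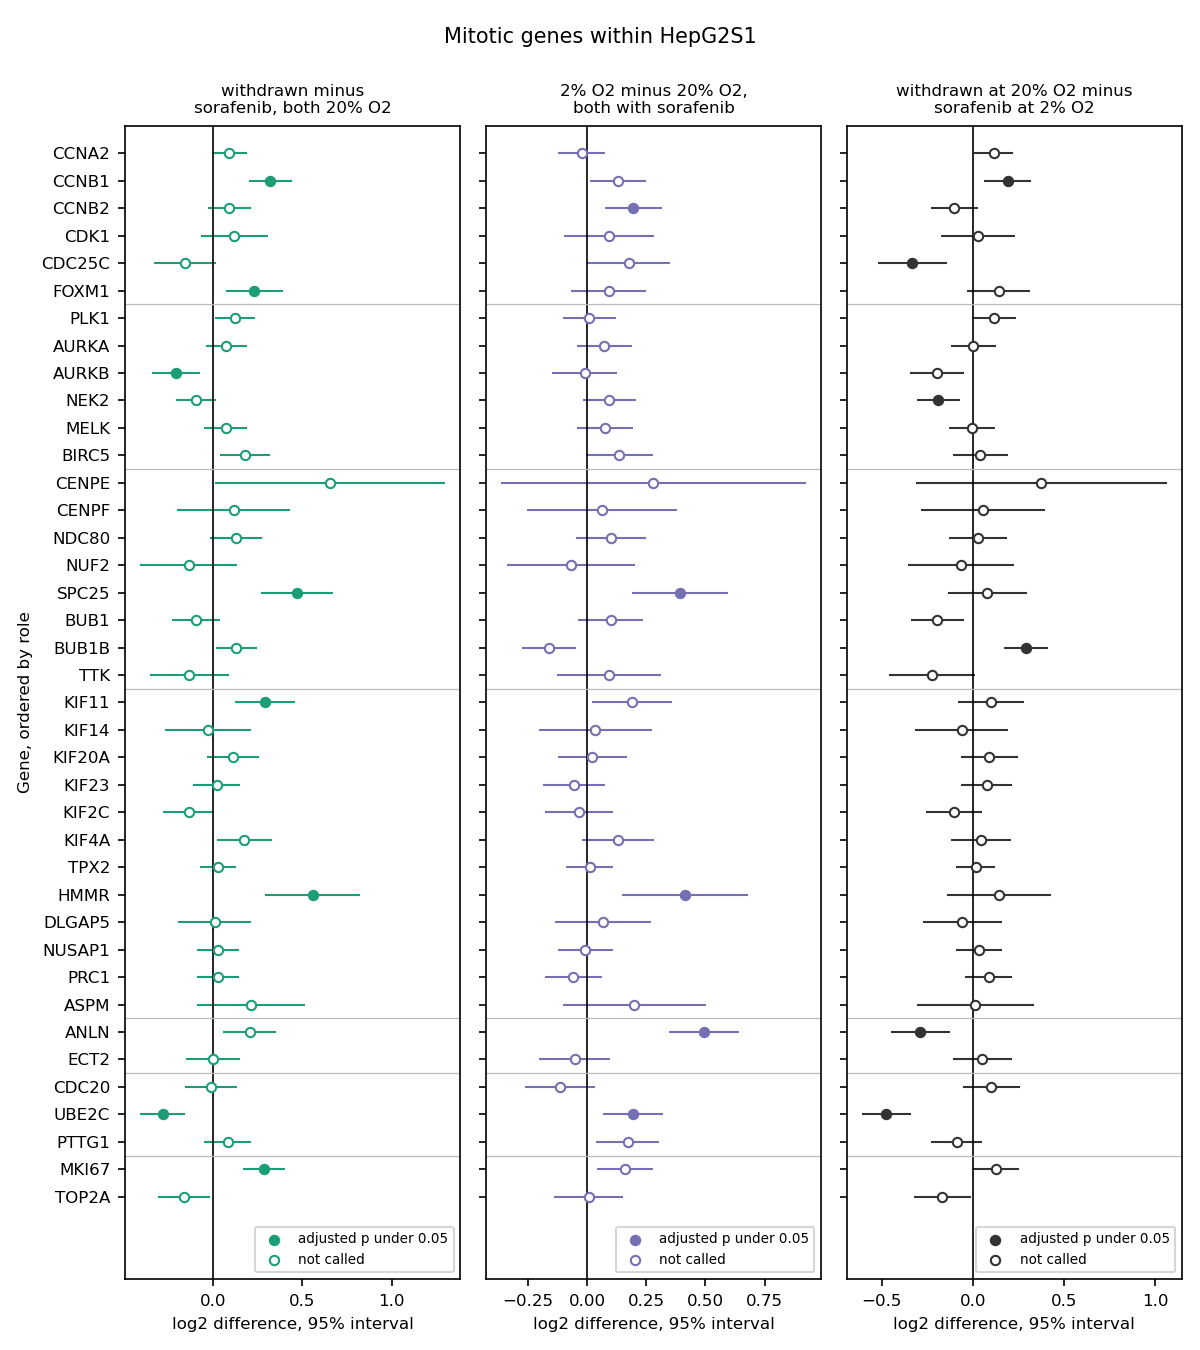
Log2 differences with 95% intervals of the 39 mitotic genes for withdrawn minus sorafenib at 20% O2 (left), 2% O2 minus 20% O2 under sorafenib (middle) and withdrawn minus sorafenib at 2% O2 (right); filled points passed an adjusted p of 0.05, and each panel has its own scale. Most intervals reach or lie near 0. Among called genes HMMR stands out at 0.56 in the left panel, ANLN at 0.49 in the middle and UBE2C at -0.48 in the right. CENPE lies farther out in the left panel, at 0.66, with a wide interval, and was not called.

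Withdrawn cells (n = 3) set directly against sorafenib at 2% O2 (n = 3) test whether the responses to withdrawal and to low oxygen differ, with drug and oxygen both changed. 2 genes were called higher, 4 lower and 33 neither, where 18.6% of all genes were called, 7.73% higher and 10.8% lower. The median was 0.03, equal to that of all genes at this precision. UBE2C fell by 0.48 ± 0.06 on the log2 scale (limma, adjusted p = 9.25e-05), having moved down on withdrawal and up at 2% O2, and the arrays of the 3 groups did not overlap. BUB1B was higher by 0.29 ± 0.06 (adjusted p = 0.00205), although neither condition alone passed against 20% O2 with sorafenib. CDC25C fell by 0.33 ± 0.09 (adjusted p = 0.0153), ANLN by 0.29 ± 0.07 (adjusted p = 0.0135) and NEK2 by 0.19 ± 0.06 (adjusted p = 0.027), and CCNB1 was higher by 0.19 ± 0.06 (adjusted p = 0.0372). For HMMR and SPC25, called in both earlier comparisons, the difference between the conditions was 0.14 ± 0.13 (95% interval -0.14 to 0.43) and 0.08 ± 0.10 (-0.14 to 0.29). Only UBE2C and BUB1B were called without 2% O2 replicate 2. Without 2% O2 replicate 1 ANLN was the only further gene. CCNB1 was lost whichever of the 6 arrays compared was left out. Arrays did not overlap for 8 higher and 8 lower genes, against 19.2% and 18.8% of all genes.

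Other mitotic gene groups were also higher in HepG2S1 than in HepG2. Under the drug 30.1% of all genes were called higher and 27.2% lower in this comparison. Of 48 other mitotic genes 46 rose and 1 fell in HepG2S1 under the drug, with a median of 1.25, and CEP55, a midbody protein, at 2.66 ± 0.08, DEPDC1 at 2.40 ± 0.12 and SKA1, a kinetochore protein, at 2.29 ± 0.09. Of 16 centromere assembly genes 15 rose (median 1.01), led by CENPH at 2.49 ± 0.14. Of 18 condensin and cohesin genes 15 rose and 1 fell (median 1.28), with NCAPG2, a condensin II subunit, at 2.16 ± 0.06. Of 19 centriole and centrosome genes 16 rose (median 1.04), with CEP152, a scaffold of centriole duplication, at 2.08 ± 0.12. The 16 APC/C genes moved less, 10 rising and 2 falling with a median of 0.38, and CDC26 was at 1.70 ± 0.13. On withdrawal, where limma called 10.1% of all genes higher and 7.90% lower, 7 of the 48 other mitotic genes rose and 1 fell, with CDC25A, a phosphatase that activates CDKs, at 0.60 ± 0.06. In the other lists 4 of 16 centromere assembly, 5 of 18 condensin and cohesin, 4 of 16 APC/C and 4 of 19 centriole and centrosome genes rose, and 1 of the last list fell. At 2% O2, where 8.99% of all genes were higher and 6.17% lower, 11 of the 48 other mitotic genes rose and 1 fell, with SGO2, a protector of centromeric cohesin, at 0.54 ± 0.17 (adjusted p = 0.0406). There 2 of 16 centromere assembly, 1 of 18 condensin and cohesin, 2 of 16 APC/C and 3 of 19 centriole and centrosome genes rose, and 1 APC/C gene fell.

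Of 22 genes for MuvB, MYB, E2F, RB and NF-Y proteins, the regulators of these promoters, 12 rose and 4 fell under the drug (median 0.29). Of all genes 30.1% were called higher there and 27.2% lower. MYBL2, the B-MYB that joins MuvB, was at 1.15 ± 0.07, LIN9, a MuvB core subunit, at 1.94 ± 0.07, E2F7 at 1.99 ± 0.06 and E2F6, a repressor, at -1.50 ± 0.07. On withdrawal, where 10.1% of all genes were higher and 7.90% lower, 11 of the 22 rose and 2 fell. MYBL2 was at 0.30 (limma, adjusted p = 0.00551) and E2F8 at 0.56. At 2% O2 2 of the 22 rose and 3 fell, against 8.99% and 6.17% of all genes.

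Genes of G1/S and DNA replication, which act before the mitotic genes in the cycle, were set beside them. Between the lines both were higher, with 38 of 39 G1/S genes rising and 1 falling under the drug (median 1.28), against 30.1% and 27.2% of all genes. On withdrawal 23 of 39 G1/S genes rose and 1 fell, with a median of 0.21, beside 6 and 2 of 39 mitotic genes with a median of 0.08. Of all genes 10.1% were higher on withdrawal and 7.90% lower. CCNE2, cyclin E2, was at 0.97 ± 0.11 and RRM2, a ribonucleotide reductase subunit, at 0.96 ± 0.07, PCNA, the replication clamp, at 0.20 and MCM2, a subunit of the replicative helicase, at 0.12, which was not called. At 2% O2 3 of 39 G1/S genes rose and 1 fell, with a median of 0.02, against 8.99% and 6.17% of all genes. Withdrawn cells against 2% O2 had 23 of 39 G1/S genes higher and none lower, with a median of 0.21, beside 2 higher and 4 lower mitotic genes with a median of 0.03. Of all genes 7.73% were higher in that comparison and 10.8% lower. The difference between the lists was not tested.

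Of 15 CDK inhibitors and G2 arrest genes 10 rose and 1 fell in HepG2S1 under the drug (median 0.57), where 30.1% of all genes were higher and 27.2% lower. CHEK1, a checkpoint kinase, was at 1.68 ± 0.05, SFN at 1.60 ± 0.07 and CDKN2B, an inhibitor of CDK4 and CDK6, at 1.55 ± 0.06. CDKN1A, the p21 inhibitor, was at 0.04 in this comparison and between -0.02 and 0.03 in the others, and was called in none. On withdrawal 1 rose and 3 fell, where 10.1% of all genes were higher and 7.90% lower. The median of the 15 was -0.004, with 7 above 0 and 8 below. Among the falls were GADD45A, a p53 target of the G2 arrest, at -0.42 ± 0.08 and WEE1, the kinase that inhibits CDK1, at -0.28 ± 0.08. At 2% O2 2 rose, CCNG2, cyclin G2, by 0.60 ± 0.11 and GADD45B by 0.56 ± 0.06, and none fell. The shares of all genes there were 8.99% higher and 6.17% lower, and the median of the 15 was 0.002. Of the 10 fibroblast and stellate markers 2 rose on withdrawal, DCN at 0.82 and LUM at 0.73, and 1 fell, with a median of -0.06. ACTA2 was at -0.35 there. At 2% O2 2 of the 10 rose, DCN at 0.52 and RGS5 at 0.37, and none fell, with a median of -0.002. The part of these markers in the mitotic values was not tested.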

How the data were processed

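RNA from 13 flasks was measured on 13 Affymetrix arrays. The authors deposited log2 values in 1 table of 28926 rows. Per the submitters' processing notes they used RMA, which subtracts background, equalises the quantiles of the arrays and summarises probes. Its version is not given in the sources used here, and values of 2.68 to 14.5 show the log2 scale. RMA pulls low signals together, and the number of arrays limits the precision. Of the rows 19310 carried 1 gene symbol in the platform annotation, 1752 several and 7864 none, and 19279 symbols were updated through Entrez identifiers. Rows with 1 symbol gave 18377 genes, the row with the highest mean standing for each of 685 genes with more than 1.

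Groups were taken from the labels. A limma model (version 3.58.1, R 4.3.3) of the 4 groups was fitted with lmFit, moderated with eBayes and adjusted over all genes tested by the Benjamini-Hochberg method; a gene was called at an adjusted p under 0.05. The fit was tested on simulated data with independent noise for each gene and no shift shared by a whole array. That test does not cover arrays that stand apart for most of the genes. The members, the other gene lists and the motifs were chosen with earlier results of these data known. Array values are printed for 16 genes chosen by name and for the 3 largest called rises and falls of each comparison, and of other lists at most 3 called genes per comparison are named, next to ALB, AFP, APOA1, CDKN1A, MYBL2, CCNE2, MCM2 and PCNA. APOA1 was at 7.76 in HepG2S1 with sorafenib at 20% O2 and 11.52 in HepG2. Promoter windows are RefSeq sequences of GRCh38.p14, searched on both strands. Alternatives were 75th percentile scaling, a second quantile normalization, leaving out genes whose mean was below the 33rd percentile, eBayes with trend and robust settings, a fit of the 2 groups only, array weights, the mean over the rows of a gene, an adjusted p of 0.01 and each array left out; the 10 HepG2S1 arrays alone were added after seeing the data. No scan date or batch was at hand. Plots were made in Python 3.11.15 with matplotlib 3.10.9.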

Additional observations from a re-analysis of the deposited data

Results flagged for a closer look

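In the group of 4 arrays with sorafenib at 20% O2, 5 of the 39 mitotic genes had 1 array far from the other 3 by Dixon's criterion for 4 values, which chance gives in about 1 of 20 groups. NDC80 was at 10.30 on replicate 2, with the others at 10.57 to 10.60, and DLGAP5 at 10.21, with the others at 10.47 to 10.52. This is the array on which 31 of the 39 genes were below the group mean. FOXM1 was at 11.18 on replicate 3, with the others at 11.25 to 11.26, and BIRC5 at 9.51, with the others at 9.56. CDC20 was at 11.75 on replicate 4, with the others at 11.83 to 11.85.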

How the results depend on the processing

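Against HepG2, all 38 calls under the drug held in all 21 alternatives, and after withdrawal 37 of 39 did, with 37 to 39 genes higher when arrays were left out; CDC25C and PLK1 were lost in 7 alternatives each, among them 75th percentile scaling (adjusted p = 0.112 and 0.237). Within HepG2S1 the called genes were fewer and less steady. In the 22 alternatives for withdrawal CCNB1, HMMR, MKI67, SPC25 and UBE2C were never lost, FOXM1 was lost in 12, AURKB in 7 and KIF11 in 3. Rises numbered 10 with array weights and 4 to 7 with an array left out. Falls numbered 3 with array weights, 1 with the 2 groups alone, 1 at an adjusted p of 0.01 and 1 to 2 with an array left out. At 2% O2 only ANLN was never lost, and UBE2C was lost in 11, CCNB2 in 8, HMMR in 7 and SPC25 in 3. Rises there numbered 2 with 75th percentile scaling, 3 with repeated quantile normalization, 3 with the 2 groups alone, 7 with array weights, 1 at an adjusted p of 0.01 and 1 to 9 with an array left out. BUB1B was the 1 fall with the low-level filter, both scalings, trend and robust moderation, array weights and the 10 HepG2S1 arrays alone, and falls numbered 0 to 1 with an array left out. For withdrawn cells against 2% O2, BUB1B and UBE2C were never lost. Rises in that comparison numbered 1 at an adjusted p of 0.01 and 1 to 2 with an array left out. Falls numbered 8 with array weights, 6 with the low-level filter, 6 with trend and robust moderation, 1 at an adjusted p of 0.01 and 1 to 5 with an array left out. The causes of these shifts were not tested. No value changed sign while called. Medians ran over the alternatives from 1.45 to 1.52 and 1.51 to 1.60 against HepG2, under the drug and after withdrawal, from 0.05 to 0.10 on withdrawal, 0.03 to 0.14 at 2% O2 and -0.01 to 0.06 between these. Array weights called 5231, 4568 and 5178 of all genes for withdrawal, 2% O2 and withdrawn against 2% O2, beside 3303, 2786 and 3412, and an adjusted p of 0.01 called 1970, 1298 and 2049. With 75th percentile scaling 46.7%, 32.0% and 51.6% of these calls were higher, beside 56.1%, 59.3% and 41.6%. The replicate numbers used here follow the order of the samples within each group and pair no arrays across groups. No paired analysis was possible because the labels give no replicate number shared between groups.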
